A study of Homo sapiens with 6 samples.

Results

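The Sprouty, Spred and PHLDA feedback genes were described in Huh7, an established line of human liver cancer cells, after VersicanV1 was knocked down. Versican is a chondroitin sulfate proteoglycan of the extracellular matrix, and V1 is 1 of its isoforms. The members were the rows of the deposited expression table whose symbol was SPRY1, SPRY2, SPRY4, SPRED1, SPRED2, SPRED3, PHLDA1, PHLDA2 or PHLDA3, which gave 9 of 23344 rows. The first group was Huh7 cells given a VersicanV1 knockdown lentivirus (3 libraries, all under the label sh2, so a single hairpin by its name). The second was Huh7 cells given a control lentivirus (3 libraries, label shNC). Both viruses were made in 293T cells and added with polybrene for 6 to 8 hours. Total RNA was sequenced. Nothing in the labels ties the replicates to separate cultures, so p-values measure replicate spread that could be technical alone.

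Sprouty and Spred proteins are brakes on receptor tyrosine kinase signalling. Sprouty genes are induced by growth factors such as FGF and EGF, and their products limit the Ras-Raf-MEK-ERK cascade, in part by binding the adaptor GRB2 and the ubiquitin ligase CBL. Spred proteins, which share the cysteine-rich Sprouty domain and carry an EVH1 domain, bring the Ras-inactivating protein neurofibromin to the membrane. PHLDA proteins are small and contain a pleckstrin homology-like domain that can bind phosphoinositides; PHLDA1 is induced by growth factors and stress, PHLDA2 is an imprinted growth restraint gene of the placenta, and PHLDA3 is a p53 target that restrains AKT. In the liver, Sprouty and Spred genes are known mostly as restraints on growth factor responses.

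The 13 mitochondrially encoded genes above 0 held 23.8% to 31.2% of the summed values in knockdown libraries and 16.0% to 19.2% in control libraries, and each nuclear gene is a share of the same total. All 8 hepatocyte markers were detected in every library. All were tested, and 1 rose and 2 fell, where an adjusted limma p below 0.05 marks a change. Of all genes tested, 4.15% rose and 3.94% fell. An unadjusted limma p below 0.05 was found for 5 of the 8 markers, against 29.3% of all genes tested. The albumin gene ALB was at 3426 to 4006 in knockdown and 3128 to 3579 in control libraries and was not called (adjusted p = 0.303). The apolipoprotein gene APOA1 rose (1.05, adjusted p = 0.0325). The keratin gene KRT8 fell (-0.58, adjusted p = 0.0375), and so did TTR, which encodes transthyretin, at 9.97 to 12.66 in knockdown and 23.61 to 29.95 in control libraries (-1.19, adjusted p = 0.00770). TTR passed in 13 of 13 alternatives, APOA1 in 6 and KRT8 in 5. Of 10 leukocyte and blood markers 9 were in the table. Their sum was 106, 208 and 105 in knockdown replicates 1, 2 and 3 and 71.9 to 90.2 in control libraries, most of it from LYZ and CD14. Of the 3 tested, 1 rose, the only 1 with an unadjusted limma p below 0.05. This was LYZ, at 44.53, 68.21 and 37.79 in knockdown and 18.3, 24.72 and 24.84 in control libraries (1.08, limma adjusted p = 0.0277). It passed in 8 of 13 alternatives, but not without knockdown replicate 2 or without any 1 control library. The pan-leukocyte gene PTPRC was at 1.96 in knockdown replicate 2 and at most 0.16 in every other library, and S100A8 was at 17.9 in knockdown replicate 2 and at 0 in the others. The part of these transcripts in the results was not tested, and each member's call is also given without that library.

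VCAN, the targeted gene, was at 1.90, 1.74 and 1.64 in knockdown libraries, against 4.79, 6.24 and 8.10 in control libraries. It fell by 1.39 on the log2 scale (SE 0.19, limma adjusted p = 0.0103), and the groups did not overlap. Without control replicate 2 its adjusted p was 0.0537.

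The 3 families did not move as a block. SPRY2, PHLDA1 and PHLDA2 rose in the knockdown libraries, SPRY1 fell, and SPRY4, SPRED1 and SPRED2 did not pass the test. SPRED3 and PHLDA3 were too low to be tested. All values here are per length and per library and were treated as FPKM, and log2 fold changes are on the log2(value + 1) scale, knockdown minus control. "Rose" and "fell" mean an adjusted p below 0.05 over 13696 genes. Of those genes 4.15% rose, 3.94% fell and 8.08% changed in either direction, and their median log2 fold change was -0.03. Of the 7 members tested 3 rose and 1 fell, with a median of 0.19, and the 4 called were also the 4 whose groups did not overlap. Of all genes tested 33.1% had groups that did not overlap, 14.4% with the knockdown libraries higher and 18.7% with them lower. In bulk RNA, fewer cells that express a gene and less of its RNA in each cell cannot be told apart.

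**Figure D1:**
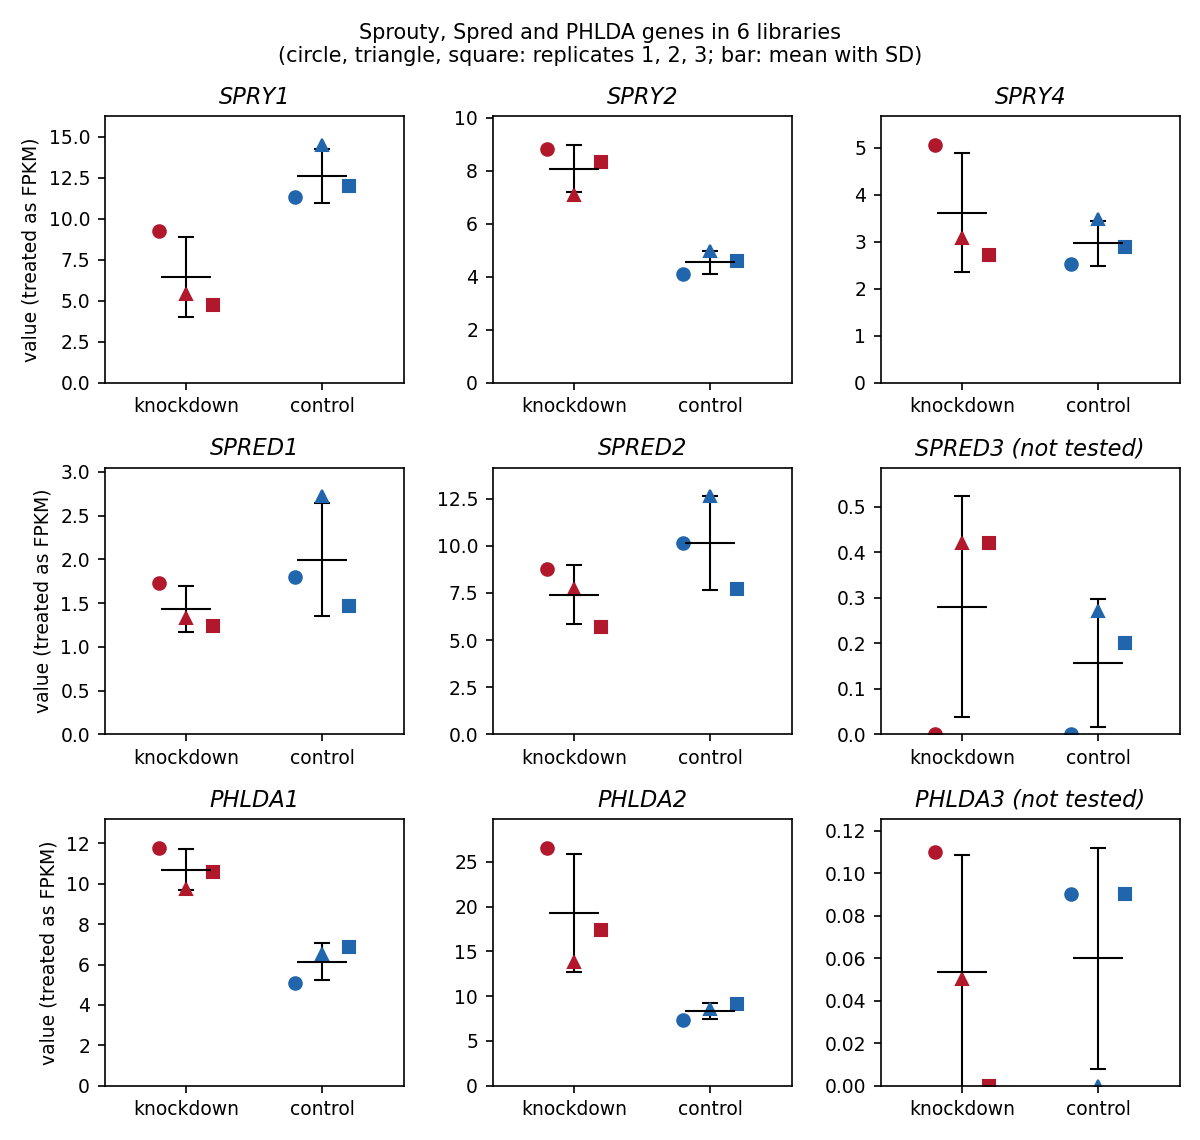
Value of each of the 9 genes in every library (vertical axis, treated as FPKM, starting at 0 and scaled per gene), knockdown left and control right, with the mean and SD of 3 libraries. SPRY2, PHLDA1 and PHLDA2 sit higher and SPRY1 lower in all knockdown libraries than in all control libraries, and the other 5 genes overlap.

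SPRY1, an inhibitor of FGF signalling, was at 9.25, 5.41 and 4.76 in knockdown libraries, against 11.35, 14.52 and 12.0 in control libraries. Every knockdown library lay below every control library, and knockdown replicate 1 was the nearest to the controls. The means were 6.47 ± 2.43 in knockdown and 12.6 ± 1.67 in control libraries (SD, n = 3 each). SPRY1 fell by 0.91 on the log2 scale (SE 0.22, 95% interval -1.41 to -0.40, adjusted p = 0.0437). Against the control mean, its log2 difference was -0.40 in knockdown replicate 1, -1.08 in replicate 2 and -1.23 in replicate 3. The call is close to the threshold. It was lost in 10 of 13 alternatives, including the 1 that scaled libraries by their nuclear genes alone (-0.81, adjusted p = 0.0577), and its adjusted p ran from 0.00202 without knockdown replicate 1 to 0.155 without control replicate 2. It did not pass without knockdown replicate 2 or 3 (adjusted p = 0.132 and 0.131) or without control replicate 1 or 3 (0.0943 and 0.0955).

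SPRY2, the most studied human Sprouty, which binds CBL and GRB2, was at 8.84, 7.10 and 8.32 in knockdown libraries, against 4.10, 4.96 and 4.59 in control libraries. The groups were fully apart, and the lowest knockdown library exceeded the highest control library by more than the range of the controls. The means were 8.09 ± 0.893 and 4.55 ± 0.431 (SD, n = 3 each), a ratio of 1.78. SPRY2 rose by 0.71 (SE 0.14, 95% interval 0.38 to 1.04, adjusted p = 0.0279). The difference was between 0.65 and 0.81 in 13 alternatives and passed in 6 of them. It did not pass without knockdown replicate 2 or 3 (adjusted p = 0.0698 and 0.0987) or without control replicate 1, 2 or 3 (adjusted p = 0.0816, 0.0907 and 0.0745).

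SPRY4, a further growth factor-induced inhibitor of the cascade that is commonly read as a marker of ERK output, was at 5.06, 3.07 and 2.72 in knockdown libraries, against 2.53, 3.48 and 2.88 in control libraries. The groups overlapped, and the highest value was that of knockdown replicate 1 alone. The log2 fold change was 0.19 (SE 0.21, 95% interval -0.29 to 0.68, adjusted p = 0.584). Without knockdown replicate 1 it was -0.02. The interval is wide and holds 0 as well as differences of up to 0.68. SPRY3, the family member outside the rule, was at 0.05 to 0.12 in knockdown and 0.11 in control libraries.

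Promoter sequence is shown for SPRY1 and SPRY2 because these close relatives were called in opposite directions. The sequences are RefSeq windows of GRCh38.p14, which the table holds for 7 of the 9 members, and cover the 250 bases before the start on the gene's strand. The window of SPRY1 is chr4:123396545-123396794, plus strand, and that of SPRY2, before its furthest upstream start, is chr13:80341127-80341376, minus strand. Capitals mark matches, on either strand, to TGACG, the core of the cyclic AMP response element, and to CCGGAA, the core bound by ETS factors.
SPRY1: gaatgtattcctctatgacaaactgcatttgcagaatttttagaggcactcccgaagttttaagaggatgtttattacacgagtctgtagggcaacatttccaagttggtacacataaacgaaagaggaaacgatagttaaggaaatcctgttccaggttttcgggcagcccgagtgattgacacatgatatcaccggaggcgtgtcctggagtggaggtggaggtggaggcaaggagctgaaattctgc
SPRY2: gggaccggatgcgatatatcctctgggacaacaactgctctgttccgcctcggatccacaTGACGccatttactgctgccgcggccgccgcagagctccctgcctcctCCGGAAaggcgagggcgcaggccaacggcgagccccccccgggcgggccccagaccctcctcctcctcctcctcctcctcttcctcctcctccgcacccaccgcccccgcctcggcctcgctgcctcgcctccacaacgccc

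The SPRY2 window held 1 match to TGACG, 190 bases before the start, and 1 to CCGGAA, 142 bases before it, while this SPRY1 window held neither. The SPRY2 window was 70.4% G and C with 23 CG dinucleotides, and the SPRY1 window 45.6% with 8. This contrast also depends on the start. The window before the other annotated SPRY1 start was 68.0% with 24, and the other SPRY2 windows were 62.4% with 13 and 41.2% with 5. The window before the other annotated SPRY1 start did hold a CCGGAA match 67 bases before that start, and both other SPRY2 windows held none, so the pattern depends on which start is used. SPRY4, which was not called, also had a TGACG match, 68 bases before the start of its window's gene model. Of the 250 bases of that SPRY4 window, 170 lie in annotated exons of SPRY4. PHLDA1 had 1 window, with a CCGGAA match on the opposite strand 89 bases before the start. All 250 bases of this PHLDA1 window, and of the window before the other SPRY1 start, lie in annotated exons of the same gene. Their matches are therefore in sequence that can be transcribed. The SPRY1 and SPRY2 windows printed in full hold no bases of annotated exons of their gene. The stretches around the ETS matches of the 3 genes are shown with 10 bases on either side.
SPRY2: cctgcctcctCCGGAAaggcgagggc
SPRY1, other start: ccctccgcagCCGGAAgggggccgcg
PHLDA1: ggagaggagtTTCCGGggctcgggtc

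Of 35114 RefSeq windows of 250 bases, 14.5% held CCGGAA and 21.2% held TGACG, so these letters are common. The full element TGACGTCA, which contains TGACG, was in 1.65% of windows, the AP-1 motif TGANTCA in 6.57% and the CArG box in 1.16%. None of these 3 was in a window of SPRY1, SPRY2, SPRY4, SPRED1, SPRED2 or PHLDA1; SPRED3 had 1 AP-1 match. A match describes the letters of the window and does not show that a factor binds there.

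Since SPRY1 and SPRY2 moved in opposite directions, the make-up of the Sprouty transcripts differed between the groups. SPRY1 made up 40.0%, 34.7% and 30.1% of the sum of SPRY1, SPRY2 and SPRY4 in knockdown libraries, against 63.1%, 63.2% and 61.6% in control libraries. SPRY2 made up 38.2%, 45.6% and 52.7% in knockdown libraries, against 22.8%, 21.6% and 23.6% in control libraries. The control libraries lay close together on both shares and the knockdown libraries were spread out. The log2 ratio of SPRY2 to SPRY1 was -0.06, 0.34 and 0.69 in knockdown libraries, against -1.28, -1.38 and -1.22 in control libraries; this ratio was chosen after the values were seen and is given with no test. It does not depend on the scaling of a library apart from the pseudocount. The sum of the 3 genes was 23.15, 15.58 and 15.8 in knockdown libraries, against 17.98, 22.96 and 19.47 in control libraries, and overlapped.

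**Figure D2:**
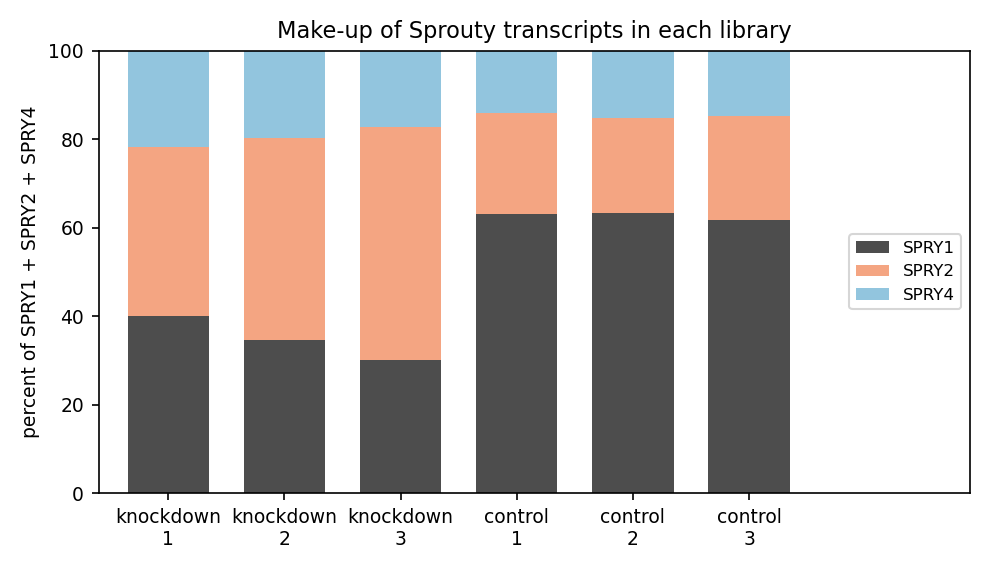
Percent of the summed SPRY1, SPRY2 and SPRY4 values held by each gene (stacked bars, vertical axis 0 to 100%), 3 knockdown libraries left and 3 control libraries right. SPRY1 holds 30.1% to 40.0% in knockdown and 61.6% to 63.2% in control libraries.

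The ratios set in the design compared members of a family within a library. The log2 ratio of SPRY2 to SPRY4 was 0.70, 0.99 and 1.33 in knockdown libraries, against 0.53, 0.41 and 0.53 in control libraries, a difference of 0.52 with no overlap (exact permutation test, two-sided, p = 0.1, adjusted p = 0.133 over 4 ratios). With 3 libraries against 3 the smallest p this test can give is 0.1, so it could not pass. The log2 ratio of SPRED1 to SPRED2 was -1.84, -1.91 and -1.58 in knockdown libraries, against -1.99, -1.87 and -1.81 in control libraries, a difference of 0.12 with overlap (exact permutation test p = 0.5). The ratios of PHLDA1 and PHLDA2 to PHLDA3 differed by 0.73 and 1.09 (exact permutation test p = 0.1 each, adjusted p = 0.133), and since PHLDA3 was near 0 they repeat the changes of PHLDA1 and PHLDA2.

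Neither of the Spred genes that could be tested was called. SPRED1, the gene mutated in Legius syndrome, was at 1.73, 1.33 and 1.24 in knockdown libraries, against 1.80, 2.72 and 1.47 in control libraries. The groups overlapped, and control replicate 2 stood highest. Its log2 fold change was -0.28 (SE 0.20, 95% interval -0.75 to 0.18, adjusted p = 0.389). SPRED2, its close paralogue, was more abundant, at 8.76, 7.73 and 5.69 in knockdown libraries, against 10.13, 12.63 and 7.69 in control libraries. Knockdown replicates 1 and 2 lay within the range of the controls and replicate 3 below it. Its log2 fold change was -0.40 (SE 0.21, 95% interval -0.87 to 0.07, adjusted p = 0.233). SPRED2 did not pass in any of 13 alternatives nor SPRED1 in any of 12, and both stayed negative in each. SPRED3 was at 0, 0.42 and 0.42 in knockdown libraries, against 0, 0.27 and 0.20 in control libraries, and did not reach the minimum value of 1.

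PHLDA2, the growth restraint gene of the placenta, had a log2 fold change of 1.08 with all libraries kept. It was at 26.58, 13.86 and 17.44 in knockdown libraries, against 7.30, 8.60 and 9.11 in control libraries. All knockdown libraries were above all control libraries, and knockdown replicate 1 was well above the other knockdown libraries. The means were 19.3 ± 6.56 and 8.34 ± 0.933 (SD, n = 3 each), a ratio of 2.31. PHLDA2 passed the test (SE 0.22, 95% interval 0.58 to 1.57, adjusted p = 0.0278). It was 0.83 without knockdown replicate 1, with an adjusted p of 0.00701, and 1.28 without knockdown replicate 2 (adjusted p = 0.0468). It did not pass without knockdown replicate 3 (adjusted p = 0.0694) or without control replicate 1, 2 or 3 (0.0870, 0.102 and 0.0628).

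PHLDA1, also called TDAG51, was at 11.79, 9.76 and 10.56 in knockdown libraries, against 5.09, 6.50 and 6.86 in control libraries. The groups were apart, and the knockdown libraries lay close together. The means were 10.7 ± 1.02 and 6.15 ± 0.935 (SD, n = 3 each), a ratio of 1.74, near that of SPRY2. PHLDA1 rose by 0.72 (SE 0.15, 95% interval 0.37 to 1.06, adjusted p = 0.0307). Its adjusted p was 0.0788 and 0.0941 without knockdown replicates 2 and 3, and 0.0823, 0.101 and 0.0617 without control replicates 1, 2 and 3. PHLDA3 was at 0.11, 0.05 and 0 in knockdown libraries, against 0.09, 0 and 0.09 in control libraries. It was near 0 in both groups, and no fold change is given.

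**Figure D3:**
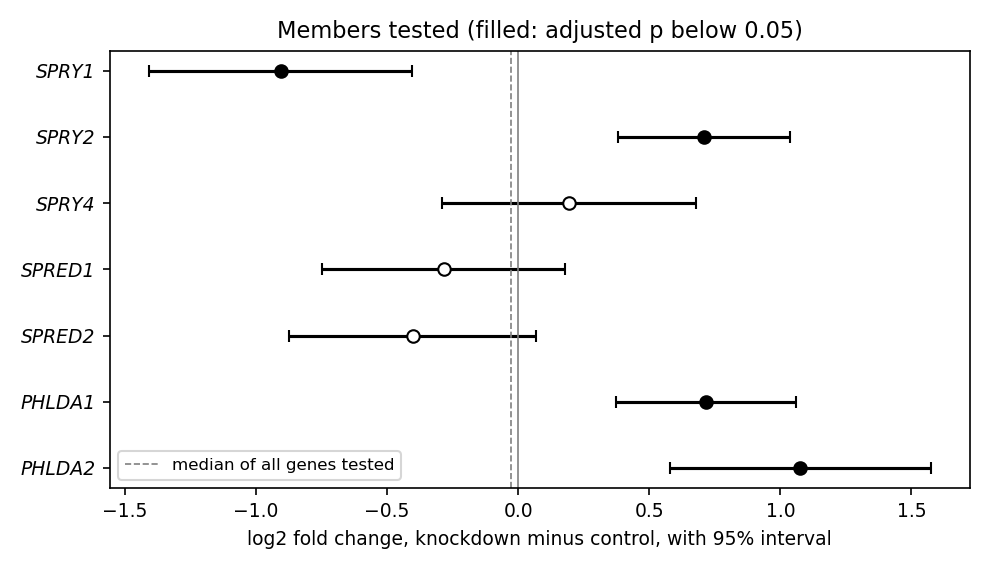
Log2 fold change of the 7 members tested (horizontal axis, knockdown minus control, log2(value + 1) scale), with 95% intervals from limma; filled points have an adjusted p below 0.05 and the dashed line is the median of all genes tested. PHLDA2 (1.08), PHLDA1 (0.72) and SPRY2 (0.71) lie right of 0, SPRY1 (-0.91) left of it, and the intervals of SPRY4, SPRED1 and SPRED2 cross 0.

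The order of the levels, which are per length, differed between the groups. In knockdown libraries it was PHLDA2 (mean 19.3), PHLDA1 (10.7), SPRY2 (8.09), SPRED2 (7.39), SPRY1 (6.47), SPRY4 (3.62), SPRED1 (1.43), SPRED3 (0.28) and PHLDA3 (0.0533). The ranges of SPRY2 and SPRED2, of SPRED2 and SPRY1, of SPRY1 and SPRY4, and of SPRED3 and PHLDA3 overlapped, and the other neighbours were apart. In control libraries it was SPRY1 (12.6), SPRED2 (10.15), PHLDA2 (8.34), PHLDA1 (6.15), SPRY2 (4.55), SPRY4 (2.96), SPRED1 (2.0), SPRED3 (0.157) and PHLDA3 (0.06). There the ranges of SPRY1 and SPRED2, of SPRED2 and PHLDA2, of SPRY4 and SPRED1, and of SPRED3 and PHLDA3 overlapped. By its mean, SPRY1 thus led the order in control libraries and stood below PHLDA2, PHLDA1, SPRY2 and SPRED2 in knockdown libraries. In knockdown replicate 1 alone, SPRY1 (9.25) was above SPRY2 (8.84) and SPRED2 (8.76). The summed PHLDA values were 38.48, 23.67 and 28.0 in knockdown libraries, against 12.48, 15.1 and 16.06 in control libraries, and the summed Spred values 10.49, 9.48 and 7.35 against 11.93, 15.62 and 9.36.

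Knockdown replicate 1 was the highest of the knockdown libraries for 7 of the 7 members tested, whether the gene rose, fell or did neither. Of all genes tested, 35.3% were highest in that library among the 3. It was also the highest for 10 of 15 ERK-induced transcripts. Among the control libraries, replicate 2 was the highest for 5 of the 7 members, against 34.1% of all genes tested. This comparison was chosen after the values were seen and carries no test. Because that knockdown library was the highest for each member, leaving out knockdown replicate 1 had to move the log2 fold changes of all 7 downward. They were then -1.16 for SPRY1, -0.37 for SPRED1 and -0.52 for SPRED2, further from 0 than with all libraries, and 0.65 for SPRY2, 0.65 for PHLDA1 and 0.83 for PHLDA2, nearer to 0. SPRY4 crossed 0, to -0.02.

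The other genes of the pathway were read from the same test. Of 26 genes of the cascade from receptor adaptors through Ras to ERK and its kinases, 24 were tested and 0 were called in limma, with a median log2 fold change of -0.15. Among those with the smallest p were the adaptor gene GRB2 (-0.51, adjusted p = 0.105), the ERK-activated kinase gene RPS6KA1 (-0.38, adjusted p = 0.120), NRAS (-0.37) and MAPK3, which encodes ERK1 (-0.43). GRB2 was at 23.12, 20.69 and 14.62 in knockdown libraries, against 26.08, 31.73 and 25.55 in control libraries, with no overlap. Of 14 binding partners of Sprouty and Spred proteins, all tested, 0 were called. The caveolin gene CAV1 had a log2 fold change of 0.46 (adjusted p = 0.113), the phosphatase subunit gene PPP2CA -0.45 (adjusted p = 0.111), and the ubiquitin ligase genes SIAH2 and CBL 0.23 and -0.23. At an unadjusted p below 0.05, which 29.3% of all genes tested had, the cascade list held 3 of 24 genes and the partner list 3 of 14. Without knockdown replicate 1, 4 cascade genes fell, and 1 partner gene rose and 1 fell. That fit called 3284 of 13408 genes tested, 1573 of them higher, against 1107 of 13696 with all libraries.

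Of 16 ERK-induced transcripts outside the 9 members, 15 were tested, 3 rose and 0 fell, with a median of 0.39. The groups did not overlap for 8 of the 15, all higher in knockdown libraries, against 14.4% of all genes tested. An unadjusted limma p below 0.05 was found for 11 of the 15, against 29.3% of all genes tested. ETV5 was the only 1 of the 11 with a negative log2 fold change (-0.75). The list was chosen with earlier results of these data known, so these shares are a description and no test of the list. The counts rest on which libraries are kept. Without knockdown replicate 1, 5 rose and 3 fell, and with any other 1 library left out 1 rose and 0 fell. The total of genes called moved as well. It was 3284 of 13408 genes tested without knockdown replicate 1, 1573 of them higher, and 56 to 244 with any other 1 library left out. DUSP5, a nuclear ERK phosphatase gene, was at 23.52, 16.2 and 18.43 in knockdown libraries, against 5.48, 7.02 and 5.25 in control libraries (1.55, SE 0.17, adjusted p = 0.00702). MYC was at 40.73, 38.45 and 33.01 in knockdown libraries, against 12.5, 22.63 and 22.46 in control libraries (0.97, adjusted p = 0.0351). SH2B3, an adaptor gene that restrains cytokine signalling, rose by 0.72 (adjusted p = 0.0408). FOSL1 (1.61, adjusted p = 0.0725) and HBEGF (0.95, adjusted p = 0.0749) had groups that did not overlap and did not pass. FOSL1, an AP-1 subunit gene, was at 12.3, 2.11 and 3.2 in knockdown libraries, against 0.43, 0.91 and 1.23 in control libraries, and knockdown replicate 1 stood far above the rest. Without that library FOSL1 had 0.98 (adjusted p = 0.0220) and HBEGF, a gene for an EGF receptor ligand, 1.29 (adjusted p = 0.00355), and both passed. DUSP5 passed in 13 of 13 alternatives, SH2B3 in 7 and MYC in 5. SH2B3 and MYC did not pass when any 1 library other than knockdown replicate 1 was left out (highest adjusted p 0.140 for SH2B3 and 0.107 for MYC).

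The other 10 transcripts of this list that were tested did not pass. IER3, EPHA2, PLAUR, EGR1 and FOS had positive log2 fold changes of 0.39, 0.38, 0.34, 0.84 and 0.73 (adjusted p of 0.0810 to 0.164). ETV4 and ETV5, ETS factor genes induced by FGF signalling, had log2 fold changes of -0.90 (adjusted p = 0.197) and -0.75 (adjusted p = 0.126). DUSP6, the cytoplasmic ERK phosphatase gene, had 0.13 (adjusted p = 0.731) and DUSP4 -0.003 (adjusted p = 0.992), and the cyclin gene CCND1 had -0.31 (adjusted p = 0.516). With the 5 genes of smallest p described above, these are all 15 that were tested. ETV4 was at 17.58, 8.06 and 4.72 in knockdown libraries, against 19.69, 23.73 and 11.24 in control libraries, so knockdown replicate 1 lay within the controls and the others below them. Without knockdown replicate 1, ETV4 (-1.36, adjusted p = 0.0277), ETV5 (-1.08, adjusted p = 0.00534) and CCND1 (-0.66, adjusted p = 0.0284) fell. Transcript levels do not measure ERK activity.

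**Figure D4:**
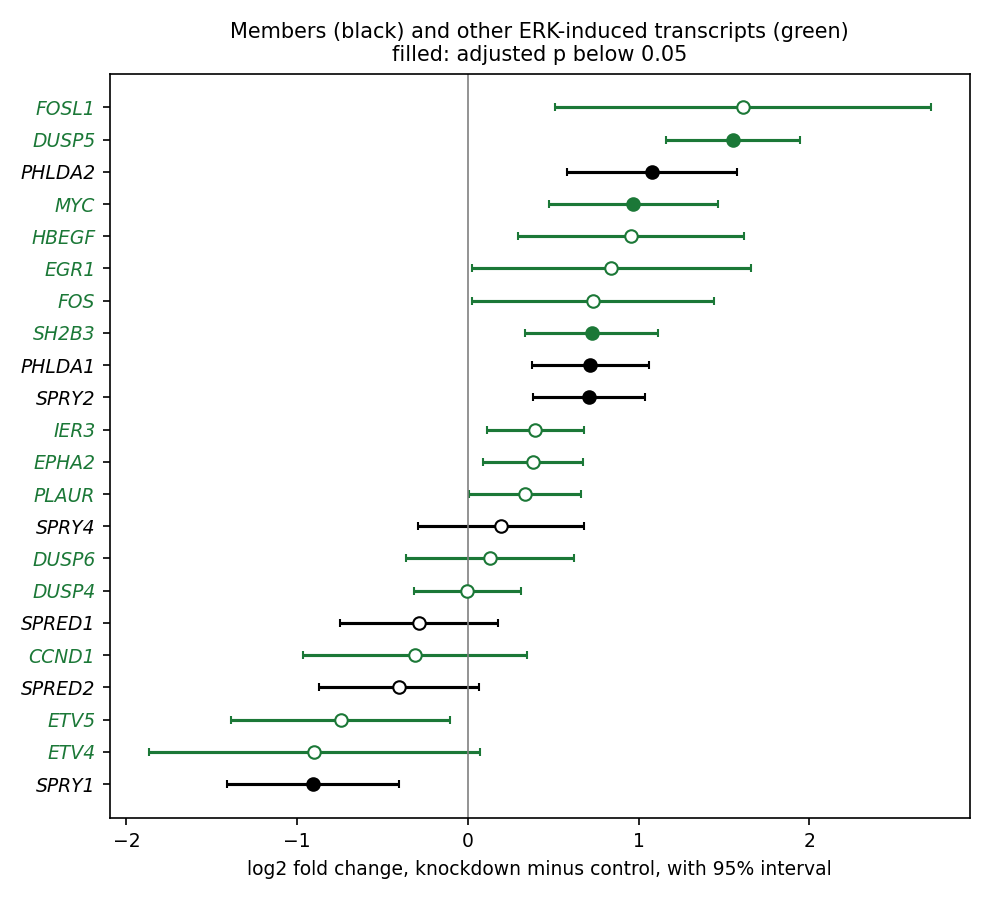
Log2 fold changes with 95% intervals (horizontal axis, knockdown minus control) of the 7 members tested (black) and 15 other ERK-induced transcripts (green), sorted; filled points have an adjusted p below 0.05. SPRY2, PHLDA1 and PHLDA2 lie in the upper part with DUSP5 (1.55) and MYC (0.97), and SPRY1 (-0.91) lies at the bottom beside ETV4 (-0.90) and ETV5 (-0.75), whose points are open.

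Of 17 growth factor receptor and FGF ligand genes 12 were tested and 0 were called. FGF19, which encodes a growth factor of the bile acid axis, was at 20.55, 9.16 and 7.51 in knockdown libraries, against 4.77, 4.83 and 3.48 in control libraries. Its groups did not overlap, and it missed the threshold (1.21, SE 0.32, adjusted p = 0.0516). It passed in 5 of 13 alternatives. These included the rescaling without mitochondrially encoded genes (adjusted p = 0.0392), the replicate block (0.0460) and the fit without knockdown replicate 1, the highest library for FGF19, where the fold change was 0.81 (adjusted p = 0.0126). FGFR4, the main hepatocyte FGF receptor gene, had 0.15 (adjusted p = 0.447), FGFR3 -0.20, ERBB2 0.27 and IGF1R -0.41, none past the threshold. At an unadjusted p below 0.05 this list had 2 of 12 genes, against 29.3% of all genes tested. Without knockdown replicate 1, where 3284 of 13408 genes tested were called, FGF19 rose and IGF1R fell (adjusted p = 0.0375).

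PHLDA2 lies in an imprinted cluster on chromosome arm 11p. Of 9 genes of that region 7 were tested, 0 rose and 1 fell, against 4.15% and 3.94% of all genes tested. An unadjusted limma p below 0.05 was found for 2 of the 7, against 29.3% of all genes tested. NAP1L4, a histone chaperone gene close to PHLDA2, was at 78.72, 76.41 and 66.53 in knockdown libraries, against 113.99, 108.08 and 96.25 in control libraries, and fell (-0.52, adjusted p = 0.0364), opposite to PHLDA2. It did not pass when any 1 library other than knockdown replicate 1 was left out (adjusted p of up to 0.133). The transporter gene SLC22A18, imprinted like PHLDA2, had -0.23 (adjusted p = 0.470), KCNQ1OT1, the long RNA of the imprinting centre, 0.52 (adjusted p = 0.124), and IGF2 and CD81 0.28 and 0.18. CDKN1C, the CDK inhibitor gene of the cluster, was too low to be tested, at 1.23, 1.01 and 0.83 in knockdown libraries, against 0.56, 0.13 and 0.36 in control libraries.

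Although PHLDA3 was near 0, other p53 target genes were present. Of 19 such genes 18 were tested, 3 rose and 0 fell, with a median of 0.12. Of the 18, 7 had an unadjusted p below 0.05, against 29.3% of all genes tested. Without knockdown replicate 1, 8 rose, and with any other 1 library left out 0 did. Among all genes, 3284 of 13408 tested were called in the first of these fits, 1573 of them higher, and 56 to 244 in the others. CDKN1A (0.79, adjusted p = 0.0212), BTG2 (1.48, adjusted p = 0.0302) and TP53I3 (0.72, adjusted p = 0.0305) rose, and TNFRSF10B and GADD45A (0.42 and 1.55, adjusted p = 0.0529 each) did not pass. The 3 that rose were not called when any 1 library other than knockdown replicate 1 was left out (adjusted p of up to 0.0749 for CDKN1A, 0.108 for BTG2 and 0.109 for TP53I3). Of 10 phosphoinositide and AKT genes 8 were tested, and 1 fell and 0 rose, against 3.94% and 4.15% of all genes tested. An unadjusted limma p below 0.05 was found for 2 of the 8, against 29.3% of all genes tested. AKT1 was at 19.89, 26.92 and 21.83 in knockdown libraries, against 36.89, 34.99 and 34.06 in control libraries (-0.61, adjusted p = 0.0334). AKT1 passed in 4 of 13 alternatives. It did not pass with the rescaling without mitochondrially encoded genes (-0.51, adjusted p = 0.0746), with the replicate block (0.0546), without the filter (0.0753), without trend or robust moderation (0.0508), or without any 1 library other than knockdown replicate 1 (up to 0.122 without control replicate 2). AKT2, PIK3CB, PIK3R1 and PIK3CA had -0.39, -0.19, 0.26 and -0.12 and did not pass.

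The genes whose log2 values ran most like those of a member over the 6 libraries were listed for the 4 members with a mean log2 value of at least 3. For SPRY1 they were BORA, TOMM22 and MDFIC (Pearson r of 0.998, 0.996 and 0.995), for SPRED2 PMM2, HNRNPA0 and CHML (0.989, 0.985 and 0.985), for PHLDA1 CLDN1, CCNT2 and TDG (0.996, 0.992 and 0.988), and for PHLDA2 CTSC, GPBP1L1 and NNMT (0.995, 0.993 and 0.993). With 6 libraries in 2 groups such values are easily reached, since the difference between the groups enters r. Of 7791 candidates, 327 had r above 0.95 with SPRY1, 62 with PHLDA1, 41 with SPRED2 and 33 with PHLDA2.

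**Figure D5:**
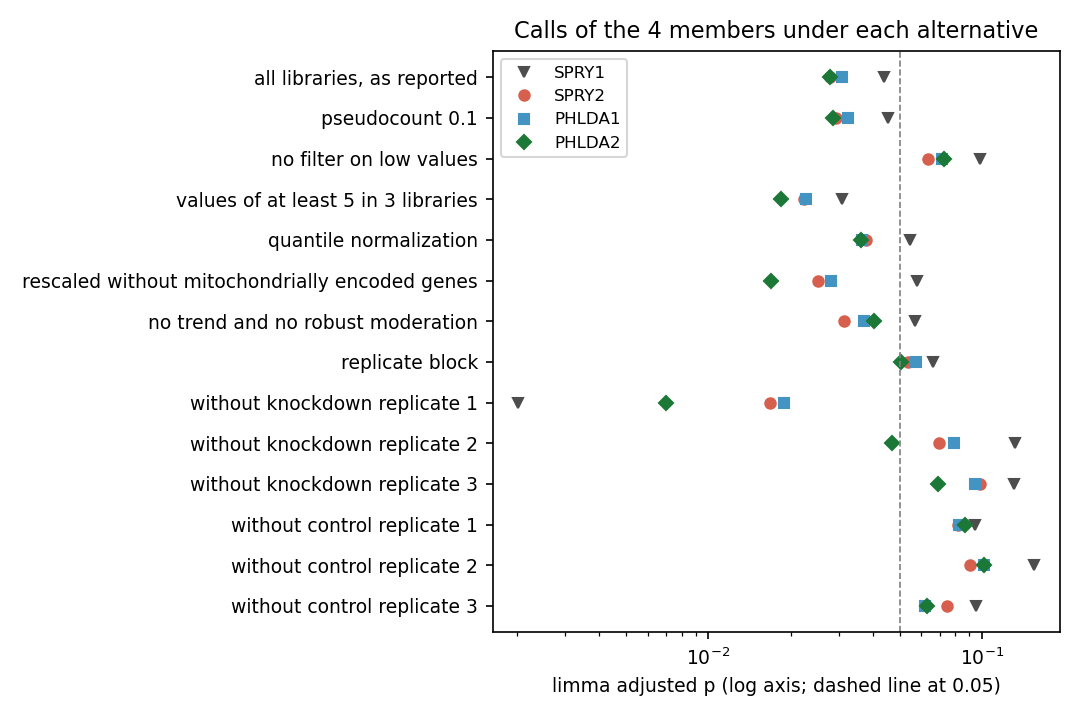
Limma adjusted p (horizontal log axis, dashed line at 0.05) of SPRY1, SPRY2, PHLDA1 and PHLDA2 with all libraries and under 13 alternatives (rows). All 4 genes lie left of the line with all libraries kept and without knockdown replicate 1, and all 4 lie right of it without knockdown replicate 3, without any 1 control library, without the low-value filter and with the replicate block.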

How the data were processed

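RNA sequencing of 6 libraries (3 VersicanV1 knockdown, 3 control) was grouped and numbered by their titles. The authors deposited 1 table of human Ensembl gene rows. Its unit is not named, and the values were taken as FPKM made by the authors because they are not whole and library totals differ (922125 to 975501 in knockdown, 851418 to 947769 in control); TPM of a partial gene set cannot be told apart. Read depth is unknown, so no counting interval is given. The submitters' processing notes list, with no roles, DESeq2 1.16.1, edgeR 3.18.1, RSEM 1.1.17, Bowtie2 2.2.6, Trimmomatic 0.36 and bcl2fastq 2.19.0, and the build mm10, a mouse build, although the IDs are human; no coordinates of expression rows are used.

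Rows that reached 1 in 3 or more libraries were tested on log2(value + 1) with limma 3.58.1 in R 4.3.3 (trend, robust, two-sided, Benjamini-Hochberg over 13696 genes). The script was checked on simulated data. Ratios had an exact permutation test. Members and lists were chosen with earlier results of these data known. Named genes are the 9 members, VCAN, SPRY3 and up to 5 list genes with the smallest p. They also include the 3 genes most correlated with each member of mean log2 value of at least 3, clones and pseudogenes left out. Other genes named, among them the remaining ERK-induced transcripts, PTPRC, S100A8 and CDKN1C, fall outside this rule and were chosen later. A gene that the rule selects is not reported here. Promoter windows are RefSeq's, GRCh38.p14, trimmed to bases before the start. Alternatives were pseudocount 0.1, no filter, a minimum of 5, quantile normalization, rescaling without mitochondrially encoded genes, no trend or robust moderation, a replicate block, and each library left out.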

Additional observations from a re-analysis of the deposited data

How the results depend on the processing

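Of the 9 members, 4 were called with all libraries. The number that rose was 3, against 0 without the low-value filter, 0 under the replicate block and 0 to 3 with 1 library left out (3 without knockdown replicate 1, 1 without knockdown replicate 2, 0 otherwise). The number that fell was 1, and it was 0 with no filter, with quantile normalization, with the rescaling, without trend or robust moderation and with the block, and 0 to 1 with 1 library left out. Directions of SPRY1, SPRY2, PHLDA1 and PHLDA2 held in each of 13 alternatives, while SPRY4 ran from -0.0196 (without knockdown replicate 1) to 0.33 (without knockdown replicate 3). VCAN had -1.56 to -1.23 with 1 library left out. Over the 9 lists, whose numbers tested are given above, 12 list genes were called. They numbered 2 with no filter, 7 without trend or robust moderation and 2 to 31 with 1 library left out. All genes called numbered 1107 (8.08% of those tested), against 221, 727 and 56 to 3284 in the same settings, and 861 with the replicate block. The rescaling moved the median of all genes to 0.06. Titles give both groups the numbers 1 to 3, but deviations of same-numbered libraries correlated at 0.053, 0.105 and 0.135, not every library correlated best with its own number, and the pairing was not taken as real; with the block, adjusted p was 0.0662 for SPRY1, 0.0538 for SPRY2, 0.0573 for PHLDA1 and 0.0504 for PHLDA2. TMM scaling and count tests were not run, since the values are not counts. Causes of these shifts were not tested.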
